A study of Mus musculus with 12 samples.

Results

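The genes described here are 10 genes that Wnt signalling keeps on in hepatocytes next to the central vein of the liver lobule: Glul, Oat, Rhbg, Slc1a2, Axin2, Rnf43, Znrf3, Lgr5, Tbx3 and Lect2. They were taken by symbol from a table of 24532 mouse genes, and all 10 were among the 13379 genes with enough counts to be tested. The data are RNA-seq of whole liver from 12 mice, all 20 wk old and of strain C57BL/6x129S6/SvEv. There were 4 KO-Drug libraries from Atp7b-/- mice that received an LXR (liver X receptor) agonist in their feed. Another 4 libraries, KO, came from Atp7b-/- mice without the agonist. The 4 Het libraries came from heterozygous control mice, so the reference group was not wild type. Atp7b encodes the copper-exporting ATPase whose loss causes Wilson disease. Both KO groups carry the same Atp7b-/- genotype, and no Het group with the agonist was analysed here, so an effect of the agonist could be measured only on the knockout background. The labels used here do not give the agonist, its dose or its duration, the sex of the mice, or whether libraries came from separate litters, so the p-values measure only the spread between these libraries.

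Hepatocytes take up different tasks along the path of the blood from the portal vein to the central vein. Endothelial cells of the central vein release Wnt ligands and R-spondins. Wnt binds Frizzled and LRP receptors, halts the destruction complex, and lets beta-catenin enter the nucleus and act with TCF proteins. The genes switched on around the central vein include an ammonia-scavenging set that turns ammonium left over from the urea cycle into glutamine. They also include feedback genes that restrain the pathway itself. Glul, glutamine synthetase, is the classical marker of the innermost pericentral hepatocytes.

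The promoters of the 3 genes with the highest levels per length are shown first, since the order of these 3 genes by mean level differs between the groups. Each runs from 250 bases before to 50 bases after a RefSeq start site in build GRCm38.p6. Capitals mark CTTTGA or its reverse complement TCAAAG, the core that TCF proteins bind. The sequences cover chr1:153899679-153899978 on the plus strand for Glul, chr7:132576349-132576648 on the minus strand for Oat and chr13:56548489-56548788 on the minus strand for Lect2.
Glul: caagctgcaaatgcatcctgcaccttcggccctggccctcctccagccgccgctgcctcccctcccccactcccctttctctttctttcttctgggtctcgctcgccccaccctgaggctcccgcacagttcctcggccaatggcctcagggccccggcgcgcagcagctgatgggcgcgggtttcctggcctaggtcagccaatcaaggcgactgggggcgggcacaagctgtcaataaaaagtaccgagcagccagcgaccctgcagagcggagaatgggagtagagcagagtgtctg
Oat: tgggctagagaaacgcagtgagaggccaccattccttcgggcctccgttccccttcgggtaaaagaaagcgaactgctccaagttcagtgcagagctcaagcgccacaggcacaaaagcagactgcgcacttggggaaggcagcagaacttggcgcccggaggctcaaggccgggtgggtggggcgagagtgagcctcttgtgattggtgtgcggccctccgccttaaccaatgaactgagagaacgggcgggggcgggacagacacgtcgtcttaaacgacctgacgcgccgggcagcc
Lect2: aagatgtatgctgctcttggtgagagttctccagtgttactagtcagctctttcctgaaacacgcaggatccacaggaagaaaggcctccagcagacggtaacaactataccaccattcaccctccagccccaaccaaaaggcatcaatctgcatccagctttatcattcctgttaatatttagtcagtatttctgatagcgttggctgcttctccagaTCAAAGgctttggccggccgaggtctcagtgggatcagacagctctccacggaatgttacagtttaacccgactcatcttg
The search took both strands. It found 1 match in the Lect2 promoter, 31 bases before the start site of that window, and none of these letters in the Glul and Oat windows. This Lect2 start site lies slightly inside the gene, whose outer end on the minus strand is at 56548559. The Slc1a2 window held 2 matches, and that of Axin2 and both windows of Rnf43 held none. The windows of Slc1a2 (chr2:102706188-102706487) and Axin2 (chr11:108920099-108920398) lie inside the genes, which begin at 102658239 and 108917828. They belong to inner start sites, and the outermost start sites of these genes were not searched. The motif occurs in 16.0% of 32851 mouse promoters of the same length. The promoter table holds 6 of the 10 genes, and Rhbg, Znrf3, Lgr5 and Tbx3 are named only.

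Library totals lay between 16535938 and 28329751 counts, and single members had between 27 and 25806 counts per library. Atp7b averaged 2.22 ± 1.11 CPM in KO-Drug, 2.09 ± 0.475 CPM in KO and 12.8 ± 2.62 CPM in Het (SD, n = 4 each), so the targeted gene was lower in both groups labelled Atp7b-/-. CPM are counts per 1e6 counts, on library sizes scaled by TMM. Xist, transcribed from the inactive X chromosome of females, reached 81.8 CPM in KO 5 and 17.8 CPM in KO 6, while every other library had 0.425 CPM or less. For the Y-linked Ddx3y the level was 0.379 CPM in KO 5, 64.4 CPM in KO 6 and 79.5 to 111 CPM elsewhere. KO 5 thus carried Xist with almost no Ddx3y, the pattern of a female, and KO 6 carried both RNAs. Both libraries belong to KO, so sex is partly confounded with group in the comparisons that involve KO. An effect of sex was not tested. Results for the 10 genes, and those calls of other named genes that were lost, are also given without these libraries. Only KO 2 and KO 4 then stand for KO, and the smaller group leaves the test less able to call a difference. Markers of other cell types differed between the groups as well. Of 16 macrophage and Kupffer cell genes tested, 14 were higher in KO than in Het and 11 were lower in KO-Drug than in KO. Their summed level was 567 to 1272 CPM in KO-Drug, 1231 to 2704 CPM in KO and 500 to 680 CPM in Het. Stellate cell genes were higher in KO than in Het for 7 of 14 and lower in KO-Drug than in KO for 8 of 14. Their sum was 393 to 422, 600 to 960 and 424 to 540 CPM in KO-Drug, KO and Het. Of 12 cholangiocyte genes, 6 were higher and 2 lower in KO than in Het, and they summed to 45.6 to 57.2 CPM in KO-Drug, 95.8 to 174 CPM in KO and 33.9 to 49.4 CPM in Het. A large part of these sums was Spp1 alone, which averaged 20.3 CPM in KO-Drug, 76.7 CPM in KO and 18.1 CPM in Het. No marker of these 3 lists was at 0 in all libraries. Of 17 hepatocyte identity genes, 12 were lower and none higher in KO than in Het, against 7 lower and 1 higher with plain library totals in place of TMM, and their sum was 98422 to 119738 CPM in KO-Drug, 68058 to 103201 CPM in KO and 110772 to 183541 CPM in Het. The part of these shifts in the results for the 10 genes was not tested. In whole liver, fewer pericentral cells and less RNA per pericentral cell cannot be told apart.

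The 10 genes did not move as 1 block. In KO against Het, Glul and Tbx3 fell while Rhbg rose, and the other 7 did not pass the test. In KO-Drug against KO, Oat and Tbx3 rose while Rhbg and Lect2 fell. In KO-Drug against Het, Tbx3 was higher and Glul and Lgr5 were lower. A call means an adjusted p below 0.05 in edgeR's quasi-likelihood test, where the Benjamini-Hochberg adjustment took in every tested gene.

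Each count of members stands beside the share of all tested genes that met the same rule. In KO against Het, 3 of 10 members were called, where 40.7% of all tested genes were, 23.0% higher and 17.7% lower. Groups did not overlap for 3 members (Glul, Rhbg and Rnf43), beside 39.3% of all genes. In KO-Drug against KO, 4 of 10 members were called, beside 19.8% of all genes, of which 8.8% were higher and 11.0% lower. The same 4 genes were those whose groups did not overlap, beside 23.9% of all genes. In KO-Drug against Het, 3 of 10 were called, beside 21.4% of all genes, with 13.0% higher and 8.45% lower. Only Tbx3 had groups that did not overlap, beside 24.6% of all genes. The members' median log2 difference was -0.44 in KO against Het, 0.20 in KO-Drug against KO and -0.19 in KO-Drug against Het, with medians of all genes at 0.02, -0.02 and 0.00. Each pair of comparisons shares the 4 libraries of 1 group, so they are not independent. The members' shares were not tested against the background, and with 10 genes nothing particular to them is read from the counts. Without KO 5 and KO 6, 3 members were called in KO against Het (Glul, Rhbg and Slc1a2) and 3 in KO-Drug against KO (Tbx3, Rhbg and Lect2). Over all genes tested in that fit, 4842 and 2661 were called in these comparisons.

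**Figure D1:**
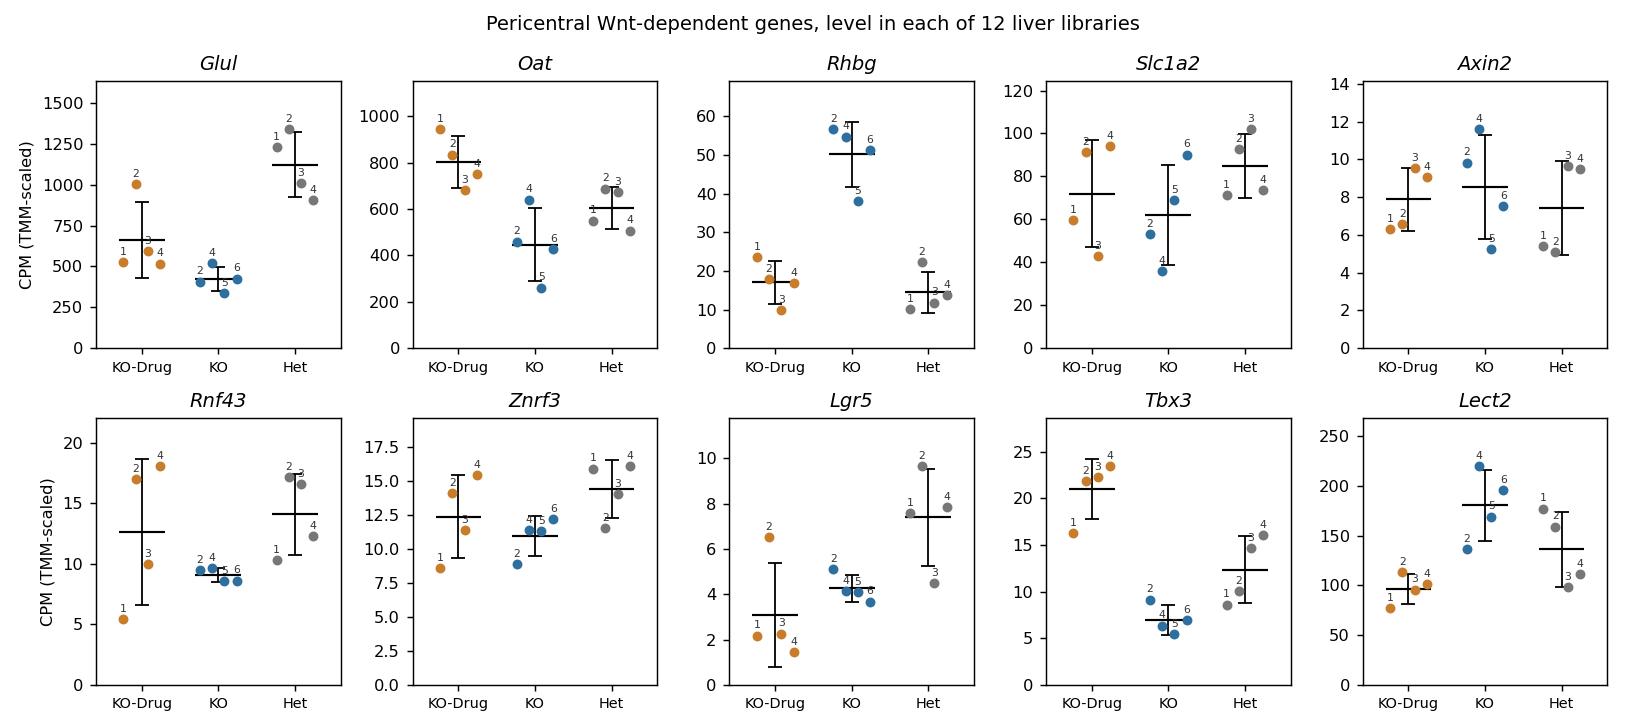
Level of each of the 10 genes in each library, in CPM on TMM-scaled library sizes, with KO-Drug, KO and Het from left to right. Points are libraries with their replicate numbers, and bars are the mean ± SD of 4. Glul has its lowest mean in KO (339 to 523 CPM) and its highest in Het (905 to 1341 CPM). KO-Drug, at 518 to 1004 CPM, overlaps both. Rhbg stands at 38.0 to 56.7 CPM in KO above both other groups, and Tbx3 is highest in KO-Drug.

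The ammonia genes come first. Glul (gene number 14645, chromosome 1, 153899929 to 153909723, mm10 coordinates from RefSeq) joins ammonium to glutamate. Its level was 527, 1004, 595 and 518 CPM in KO-Drug 1 to 4, 408, 523, 339 and 426 CPM in KO 2, 4, 5 and 6, and 1230, 1341, 1012 and 905 CPM in Het 1 to 4. Every KO library lay below every Het library, and KO-Drug overlapped both. The decrease in KO against Het was 2.65-fold (log2 -1.40, SE 0.23, adjusted p = 0.000479). It averaged 661 ± 231 CPM in KO-Drug and 424 ± 75.8 CPM in KO (SD, n = 4 each), a log2 difference of 0.64 (SE 0.23) that missed the threshold (adjusted p = 0.0633). KO-Drug 2, at 1004 CPM, raised that difference, which was 0.37 without this library. DESeq2 called it (log2 0.63, adjusted p = 0.0258), as did edgeR without KO-Drug 1 (log2 0.74, adjusted p = 0.0464). Against Het, KO-Drug was 1.70-fold lower (log2 -0.76, SE 0.23, adjusted p = 0.0293). That call was lost without any 1 of Het 1, Het 2, KO-Drug 1, KO-Drug 3 and KO-Drug 4, with adjusted p between 0.0576 and 0.0882.

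Oat (gene number 18242, chromosome 7, 132557475 to 132576398) encodes ornithine aminotransferase, a mitochondrial enzyme that links ornithine to glutamate. It stood at 944, 834, 682 and 749 CPM in KO-Drug, 459, 640, 261 and 427 CPM in KO, and 550, 688, 672 and 507 CPM in Het, in the order of replicate numbers. All KO-Drug libraries exceeded all KO libraries, and Het overlapped both groups. Oat rose 1.80-fold in KO-Drug against KO (log2 0.84, SE 0.23, adjusted p = 0.0217). The call was lost without KO 6 (adjusted p = 0.0504) and without both KO 5 and KO 6 (log2 0.59, adjusted p = 0.0862). The difference between KO and Het was not called (log2 -0.44, SE 0.23, adjusted p = 0.145), though without KO 4 Oat was called lower in KO (log2 -0.65, adjusted p = 0.0328). KO-Drug against Het gave 0.41 (SE 0.23, adjusted p = 0.232). Of these ammonia-handling enzymes, Glul was called in KO against Het and Oat in KO-Drug against KO.

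Rhbg (gene number 58176, chromosome 3, 88242874 to 88254739) encodes an ammonium transporter of the Rh glycoprotein family in the pericentral hepatocyte membrane. It moved opposite to Glul in the knockout. Its level was 23.6, 17.9, 9.82 and 16.8 CPM in KO-Drug, 56.7, 54.8, 38.0 and 51.3 CPM in KO, and 10.2, 22.2, 11.8 and 13.7 CPM in Het. The KO libraries stood above all 8 others, and KO-Drug and Het overlapped. Rhbg rose 3.46-fold in KO against Het (log2 1.79, SE 0.27, adjusted p = 0.000273) and was 2.95-fold lower in KO-Drug than in KO (log2 -1.56, SE 0.27, adjusted p = 0.00273). KO-Drug averaged 17.0 ± 5.64 CPM and Het 14.5 ± 5.37 CPM (SD, n = 4 each), a log2 difference of 0.23 (SE 0.27, adjusted p = 0.598). Glul in KO against Het and Rhbg in both comparisons were also called without KO 5 and KO 6.

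Slc1a2 (gene number 20511, chromosome 2, 102658239 to 102790784) encodes a glutamate importer that supplies the substrate of glutamine synthetase. It varied widely inside each group, with 59.8, 91.3, 43.0 and 94.0 CPM in KO-Drug, 53.1, 35.7, 69.0 and 90.2 CPM in KO, and 71.2, 92.6, 102 and 73.5 CPM in Het. All groups overlapped, and no comparison passed (adjusted p = 0.635 for KO-Drug against KO, 0.222 for KO against Het and 0.611 for KO-Drug against Het). Without KO 5 and KO 6 it was called lower in KO than in Het (log2 -0.99, adjusted p = 0.0273), against -0.45 with all libraries.

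The feedback genes restrain Wnt signalling in the cells that receive it. Axin2 (gene number 12006, chromosome 11, 108917828 to 108950783), a scaffold of the destruction complex, is the usual readout of canonical Wnt activity. Its level was 6.31, 6.57, 9.54 and 9.08 CPM in KO-Drug, 9.83, 11.6, 5.25 and 7.52 CPM in KO, and 5.42, 5.09, 9.63 and 9.49 CPM in Het. The ranges overlapped, and no difference passed the test. The log2 differences were -0.12 (SE 0.28, adjusted p = 0.806) in KO-Drug against KO, 0.21 (SE 0.28, adjusted p = 0.587) in KO against Het and 0.09 (SE 0.28, adjusted p = 0.868) in KO-Drug against Het.

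Rnf43 (gene number 207742, chromosome 11, 87663087 to 87735539) and Znrf3 (gene number 407821, chromosome 11, 5276329 to 5444847) encode membrane ubiquitin ligases that remove Frizzled receptors from the cell surface. Rnf43 had 5.40, 17.0, 10 and 18.1 CPM in KO-Drug, 9.50, 9.66, 8.58 and 8.62 CPM in KO, and 10.3, 17.2, 16.6 and 12.3 CPM in Het. KO was tight and wholly below Het, but the difference missed the threshold in the fit that shares 1 spread over all groups (log2 -0.63, SE 0.30, adjusted p = 0.11). KO-Drug spanned both other groups, and without KO-Drug 1, its lowest library, Rnf43 was called higher than in KO (log2 0.73, adjusted p = 0.0348). With all libraries that difference was 0.47 (SE 0.30, adjusted p = 0.290). Znrf3 had 8.58, 14.1, 11.4 and 15.4 CPM in KO-Drug, 8.86, 11.4, 11.3 and 12.2 CPM in KO, and 15.9, 11.5, 14.0 and 16.1 CPM in Het. Its groups overlapped, and the log2 difference was -0.40 in KO against Het (SE 0.19, adjusted p = 0.106) and 0.18 in KO-Drug against KO (SE 0.19, adjusted p = 0.536). In KO-Drug against Het it was -0.16 for Rnf43 (SE 0.30, adjusted p = 0.766) and -0.22 for Znrf3 (SE 0.19, adjusted p = 0.453). With a fit of KO and Het alone, Lgr5, Rnf43 and Znrf3 were also called lower in KO (log2 -0.84, -0.68 and -0.44, adjusted p = 0.0167, 0.0144 and 0.0492).

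Lgr5 (gene number 14160, chromosome 10, 115450314 to 115587780) encodes a receptor for R-spondins, which stabilise Frizzled by drawing off Rnf43 and Znrf3. It had the fewest reads of the 10 genes. Its level was 2.17, 6.51, 2.26 and 1.43 CPM in KO-Drug, 5.10, 4.15, 4.09 and 3.68 CPM in KO, and 7.58, 9.67, 4.50 and 7.86 CPM in Het. KO-Drug 1, 3 and 4 lay below every KO and Het library, whereas KO-Drug 2 lay above every KO library. The KO-Drug counts were 43, 125, 41 and 27, and the exact Poisson interval of KO-Drug 2 (5.42 to 7.76 CPM) lies above those of the other 3, the highest of which ends at 3.07 CPM. These 95% intervals cover counting error only. Lgr5 was 2.39-fold lower in KO-Drug than in Het (log2 -1.26, SE 0.39, adjusted p = 0.036). The call was lost without any 1 of Het 1, Het 2, Het 4, KO-Drug 1, KO-Drug 3 and KO-Drug 4 (adjusted p between 0.0639 and 0.0976). Without KO-Drug 2 the difference was -1.92. The difference between KO-Drug and KO was not called with all libraries (log2 -0.46, SE 0.39, adjusted p = 0.438), and without KO-Drug 2 Lgr5 was called lower in KO-Drug (log2 -1.12, adjusted p = 0.0209). KO averaged 4.25 ± 0.604 CPM and Het 7.40 ± 2.15 CPM (SD, n = 4 each; log2 -0.80, SE 0.38, adjusted p = 0.113).

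Tbx3 (gene number 21386, chromosome 5, 119670534 to 119684724) encodes a T-box transcription factor and a known beta-catenin target in liver. It was the gene of the 10 with a call in all 3 comparisons. Its level was 16.3, 21.9, 22.3 and 23.5 CPM in KO-Drug, 9.15, 6.35, 5.43 and 6.93 CPM in KO, and 8.61, 10.1, 14.7 and 16.1 CPM in Het. KO-Drug stood above all 8 other libraries, and KO 2 alone of the KO libraries overlapped Het. Tbx3 rose 3.01-fold in KO-Drug against KO (log2 1.59, SE 0.22, adjusted p = 0.000867) and was 1.70-fold higher in KO-Drug than in Het (log2 0.77, SE 0.22, adjusted p = 0.023). The KO-Drug against Het call was lost without any 1 of Het 1, Het 2, KO-Drug 3 and KO-Drug 4, with adjusted p between 0.0563 and 0.0746. In KO against Het it fell 1.77-fold (log2 -0.83, SE 0.22, adjusted p = 0.00938), a call that was lost without KO 5 and KO 6 (log2 -0.73, adjusted p = 0.0615).

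Lect2 (gene number 16841, chromosome 13, 56529734 to 56548559) encodes a protein that hepatocytes secrete and is another known beta-catenin target. It had 76.9, 113, 95.6 and 101 CPM in KO-Drug, 136, 220, 169 and 196 CPM in KO, and 177, 159, 98.2 and 111 CPM in Het. Every KO-Drug library lay below every KO library, and Het overlapped both. Lect2 was 1.87-fold lower in KO-Drug than in KO (log2 -0.90, SE 0.21, adjusted p = 0.0099). The difference was 0.41 in KO against Het (SE 0.21, adjusted p = 0.132) and -0.49 in KO-Drug against Het (SE 0.21, adjusted p = 0.109).

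**Figure D2:**
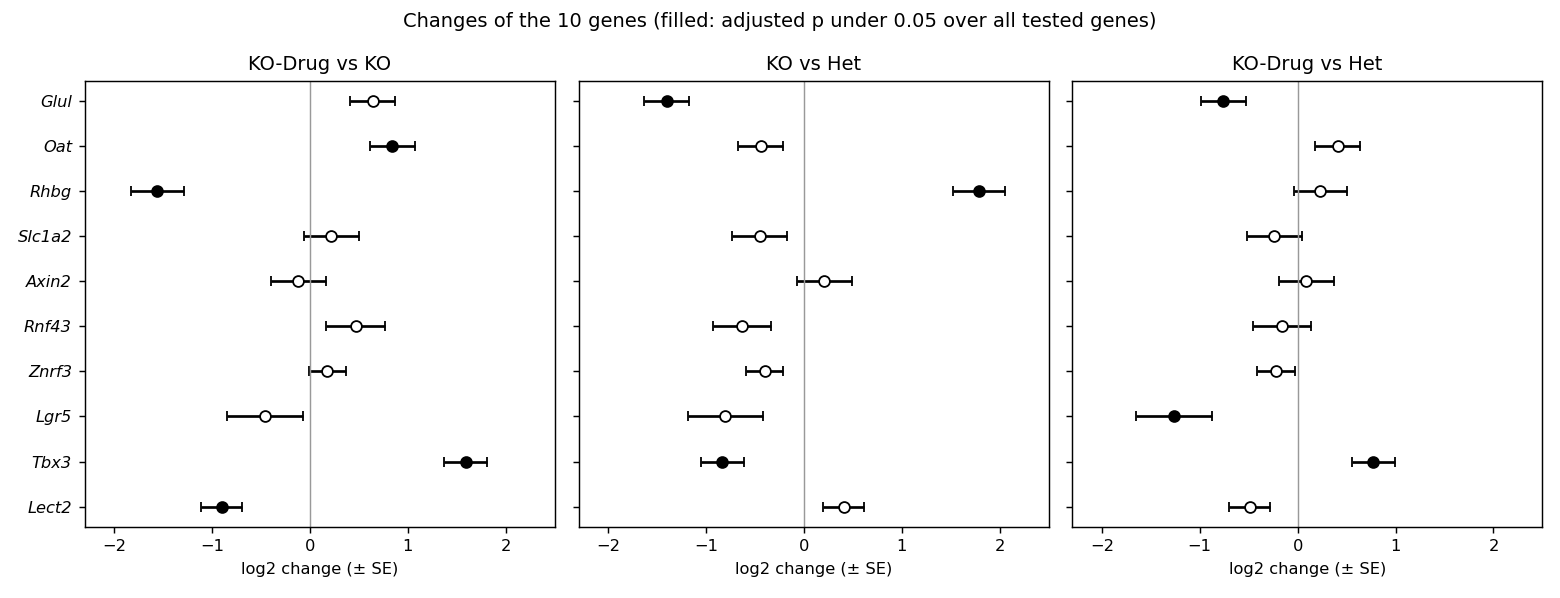
Log2 difference ± SE of each gene in 3 comparisons, from the edgeR fit of all 12 libraries. Filled circles have an adjusted p under 0.05. Rhbg and Lect2 lie left of 0 and Tbx3 and Oat right of 0 in KO-Drug against KO, while Glul is at -1.40 and Rhbg at 1.79 in KO against Het.

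Several of these directions depend on how libraries are scaled. With plain library totals in place of TMM, the median of all tested genes moved to 0.54 in KO against Het, -0.36 in KO-Drug against KO and 0.18 in KO-Drug against Het, and the share of calls that were higher in KO than in Het was 93.8%, against 56.5% with TMM. The share of calls higher in KO-Drug than in KO was 8.32%, against 44.3%, and in KO-Drug against Het it was 83.0%, against 60.6%. Glul and Rhbg in KO against Het, and Rhbg, Tbx3 and Lect2 in KO-Drug against KO, kept direction and call. Under total-count scaling Axin2 and Lect2 were called higher in KO than in Het (log2 0.74 and 0.91), next to that median of 0.54, and the Tbx3 decrease was not called (log2 -0.30, adjusted p = 0.251). The Oat rise in KO-Drug against KO was not called either (log2 0.50, adjusted p = 0.114), nor were Glul and Lgr5 in KO-Drug against Het (log2 -0.59 and -1.09, adjusted p = 0.0847 and 0.0654). Oat and Znrf3 in KO against Het then stood at 0.11 and 0.11 and Slc1a2 at 0.07, with signs opposite to those under TMM and the test not passed in either case.

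**Figure D3:**
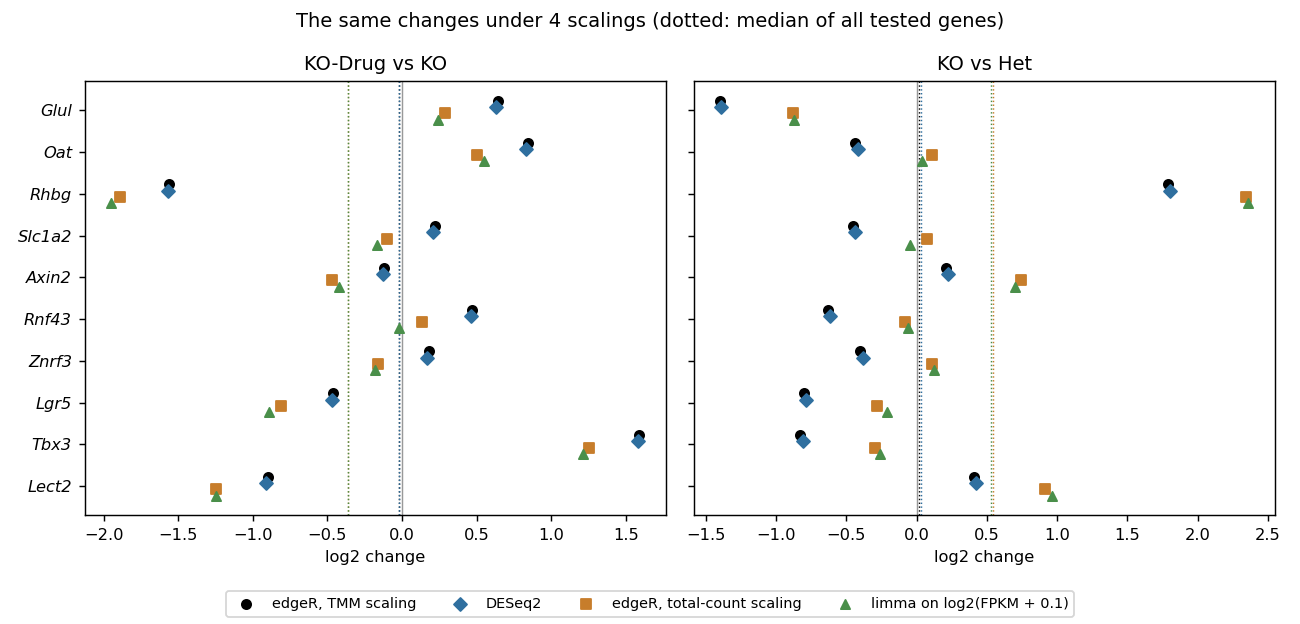
Log2 differences of the 10 genes under 4 scalings, for KO-Drug against KO on the left and KO against Het on the right. Dotted lines are the median of all tested genes under each. Total-count and FPKM values shift together with the median, to 0.54 for total counts in KO against Het, and Rhbg, Glul and the KO-Drug rise of Tbx3 keep their sign under all 4.

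Levels can be set between genes only per length, for which the FPKM deposited by the authors were used. The 10 genes span a wide range. Oat averaged 289, Glul 181 and Lect2 84.9 FPKM in KO-Drug. In KO the order was Oat at 206, Lect2 at 204 and Glul at 150 FPKM, and neighbours in this order overlapped. In Het, Glul led with 274 FPKM (226 to 348), followed by Oat at 190 (165 to 203) and Lect2 at 108 (70.1 to 160), and the ranges did not overlap. Glul thus led in Het and had the lowest mean of the 3 in KO, there within overlapping ranges. Rhbg came next at 6.95 FPKM in KO-Drug and 25.9 FPKM in KO, apart from Slc1a2 (6.29 FPKM) in KO and overlapping it in KO-Drug (5.62 FPKM). In Het, Rhbg (5.06 FPKM) stood below Slc1a2 (6.28 FPKM), with overlapping ranges. Rnf43, Tbx3, Znrf3 and Axin2 had means between 1.18 and 3.45 FPKM in all groups, and each overlapped its neighbour among them. Lgr5 had the lowest mean in every group, at 0.499 FPKM in KO-Drug, 0.89 FPKM in KO and 1.08 FPKM in Het. It overlapped Axin2 and Znrf3 in Het and Rnf43 in KO-Drug.

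The ratio of each gene to Glul within a library does not depend on scaling. This measure was chosen after the values were seen. For each 1000 Glul counts there were 44.8, 17.8, 16.5 and 32.4 Rhbg counts in KO-Drug, 139, 105, 112 and 121 in KO, and 8.3, 16.6, 11.7 and 15.1 in Het. The KO libraries stood apart from all others, by a mean log2 ratio difference of -2.21 in KO-Drug against KO and 3.25 in KO against Het. The Lect2 to Glul ratio differed by -1.49 and 1.83 in these comparisons, and the Oat to Glul ratio by 1.21 in KO-Drug against Het and 0.91 in KO against Het. All 6 ratio differences had groups that did not overlap and an exact two-sided permutation p of 0.0286, the smallest that 4 against 4 allows, as had 11 of the 27 ratio differences in all. In KO against Het all 9 ratios to Glul were higher, by 0.60 to 3.25, and Glul itself fell there, so a higher ratio does not show that the other gene rose. Adjusted over the 27 this p became 0.0701, so none passed 0.05. Ratios to Glul were not computed for the other tested genes. No background share thus stands beside these counts, and nothing particular to the members is read from them.

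Other Wnt and beta-catenin targets gave a mixed picture too. Of 19 listed, 14 were tested, and 4 were higher and 2 lower in KO than in Het, 1 was higher and 5 lower in KO-Drug than in KO, and 2 were higher and 2 lower in KO-Drug than in Het. Without KO 5 and KO 6 none was higher and 3 were lower in KO-Drug than in KO. Their median log2 difference was 0.06, 0.20 and 0.23 in KO against Het, KO-Drug against KO and KO-Drug against Het. Of all tested genes, 23.0% were higher and 17.7% lower in KO than in Het with TMM and all libraries. The shares were 8.8% and 11.0% in KO-Drug against KO, and 13.0% and 8.45% in KO-Drug against Het. With total-count scaling, 6909 of the 13379 tested genes were higher and 460 lower in KO than in Het. The numbers were 354 and 3901 in KO-Drug against KO, and 2433 and 499 in KO-Drug against Het. Without KO 5 and KO 6 they were 2688 and 2154 in KO against Het, and 1177 and 1484 in KO-Drug against KO. These shares and numbers belong beside the counts of the other lists too, and no list was tested against them. Notum, a secreted enzyme that strips the lipid from Wnt, had 3.38, 4.53, 3.48 and 3.08 CPM in KO-Drug, 4.25, 7.33, 7.53 and 7.65 CPM in KO, and 19.9, 27.1, 27.4 and 22.7 CPM in Het. Each of the 8 knockout libraries was below each Het library, while KO 2 overlapped KO-Drug. Notum fell 1.84-fold in KO-Drug against KO (adjusted p = 0.0106), 3.63-fold in KO against Het (adjusted p = 2.1e-05) and 6.69-fold in KO-Drug against Het (adjusted p = 1.4e-06). Nkd1, a cytoplasmic feedback inhibitor, averaged 4.02 CPM in KO-Drug, 6.36 CPM in KO and 7.36 CPM in Het, and was lower in KO-Drug than in either (log2 -0.66 and -0.87, adjusted p = 0.0264 and 0.00498). Dkk4, a secreted antagonist of LRP coreceptors, went the other way, with 3.08, 1.41, 6.67 and 5.36 CPM in KO-Drug, 1.29, 1.03, 0.409 and 0.803 CPM in KO, and at most 0.416 CPM in Het. The log2 difference in KO-Drug against KO was 2.22 (SE 0.65, adjusted p = 0.0303). Without KO 5 and KO 6 the calls of Notum, Nkd1 and Dkk4 in KO-Drug against KO were lost (log2 -0.63, -0.67 and 1.86, adjusted p = 0.101, 0.0634 and 0.127). Ccnd1, the cyclin that drives entry into the cell cycle, averaged 53.3 CPM in KO-Drug, 123 CPM in KO and 22.9 CPM in Het and differed in all 3 comparisons (adjusted p = 0.0104, 5.2e-05 and 0.00813 in the order KO-Drug against KO, KO against Het and KO-Drug against Het). Cd44, an adhesion receptor, and Sox4, a transcription factor, were higher in KO than in Het (log2 2.19 and 1.69) and lower in KO-Drug than in KO (log2 -1.51 and -1.82). Prox1, a hepatocyte and lymphatic transcription factor, was lower in KO than in Het (log2 -0.80, adjusted p = 0.00245), a call lost with total-count scaling (log2 -0.27, adjusted p = 0.194). Sp5, a transcription factor used as a Wnt readout, was not called in any comparison (adjusted p between 0.577 and 0.768).

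**Figure D4:**
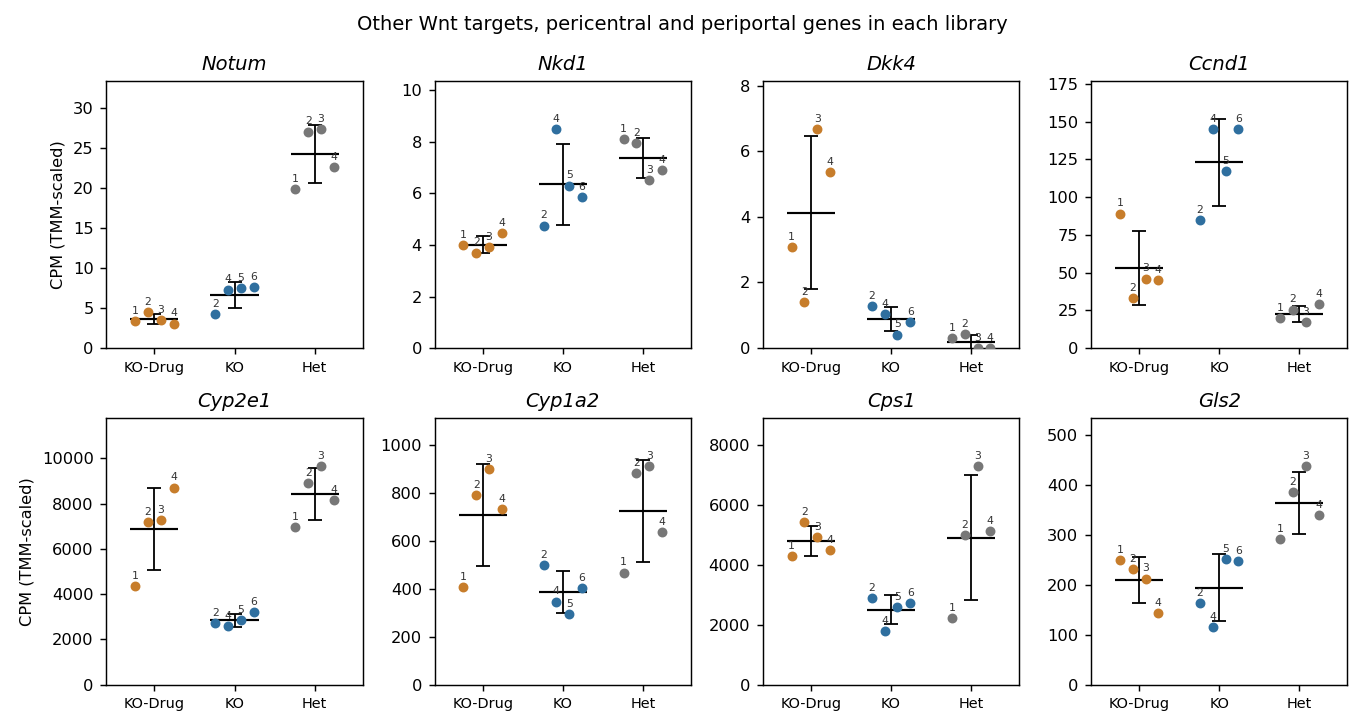
Level in CPM on TMM-scaled library sizes of 4 other Wnt targets (upper row) and of pericentral Cyp2e1 and Cyp1a2 and periportal Cps1 and Gls2 (lower row), with KO-Drug, KO and Het from left to right. Points are libraries, and bars are the mean ± SD of 4, drawn down to 0 at most. Notum is at 3.08 to 7.65 CPM in the knockout libraries and at 19.9 to 27.4 CPM in Het, and Dkk4 is highest in KO-Drug.

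Upstream of these targets, of 23 Wnt ligands and R-spondins, 6 were at 0 in all libraries and 6 were tested. The ligands of central vein endothelium had low levels in all groups. Wnt2 averaged 5.04 CPM in KO-Drug, 6.45 CPM in KO and 4.84 CPM in Het, and Wnt9b 0.895 CPM in KO-Drug, 1.11 CPM in KO and 1.07 CPM in Het. Rspo3, the R-spondin of the central vein, averaged 6.83 CPM in KO-Drug, 7.17 CPM in KO and 8.40 CPM in Het. None of these 3 was called in any comparison (adjusted p between 0.272 and 0.93). Wnt5a, a ligand mostly of non-canonical signalling, was lower in KO than in Het (log2 -1.83, adjusted p = 0.000874) and in KO-Drug than in Het (log2 -2.47, adjusted p = 0.000255), and Wnt5b was higher in KO-Drug than in Het (log2 0.95, adjusted p = 0.0139). Of 7 secretion genes, Porcn, which attaches the lipid to Wnt, was lower in KO than in Het (log2 -0.76, adjusted p = 0.0346), as was Snx3 (log2 -0.30, adjusted p = 0.0293). Both calls were lost without KO 5 and KO 6 (log2 -0.93 and -0.30, adjusted p = 0.0599 and 0.0887). They were also lost with total-count scaling, which gave 3 secretion genes higher and none lower. Wls, the carrier of Wnt to the cell surface, was lower in KO-Drug than in KO (log2 -0.80, adjusted p = 0.00993).

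Of 13 tested receptor and coreceptor genes out of 19 listed, 4 were lower in KO than in Het and none higher, where total-count scaling gave 1 lower and 5 higher. None was called in KO-Drug against KO. The 4 were the Wnt receptor Ryk (log2 -0.65, adjusted p = 0.000358), Fzd8 (log2 -2.17, adjusted p = 0.00102), Fzd7 (log2 -1.01, adjusted p = 0.00298) and Fzd5 (log2 -1.12, adjusted p = 0.00546), of which Fzd8 was also called with total-count scaling. Lgr4, the relative of Lgr5, averaged 90.6 CPM in KO-Drug, 88.0 CPM in KO and 102 CPM in Het and was not called. Of 21 tested genes of the destruction complex and its transducers, 1 was higher and 4 were lower in KO than in Het, and with total-count scaling 9 were higher and none lower. Ctnnb1, beta-catenin itself, averaged 210 CPM in KO-Drug, 267 CPM in KO and 258 CPM in Het, and the differences were not called (adjusted p between 0.0731 and 0.77). Apc was not called either (adjusted p between 0.447 and 0.82), while Axin1 was lower in KO than in Het (log2 -0.33, adjusted p = 0.0234). The Axin1 call was lost without KO 5 and KO 6 (log2 -0.35, adjusted p = 0.0811). Without these libraries none of the 21 was higher and 1 was lower. The decreases of Axin1 and Snx3 are smaller than the 0.54 shift of the median and do not keep their sign under total-count scaling. Among 14 tested genes of the TCF/LEF nuclear complex, 1 was higher and 2 lower in KO than in Het, against 4 higher and none lower with total-count scaling, and Tcf7l2 was not called (log2 -0.53, SE 0.25, adjusted p = 0.111).

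Of 5 tested secreted inhibitors out of 15 listed, Frzb, Dkk3 and Dkk4 were higher and Notum and Igfbp4 lower in KO than in Het. Igfbp4 was not called with total-count scaling (log2 -0.12, adjusted p = 0.613). Notum and Dkk4 were also counted among the other Wnt and beta-catenin targets. The lists share genes, with 7 of those 19 targets also in another list, so their counts are not separate. Frzb, a Wnt-binding decoy, was 3.32-fold higher in KO than in Het (adjusted p = 0.00225) and 2.35-fold lower in KO-Drug than in KO (adjusted p = 0.0279). Dkk3 was 2.01-fold higher in KO than in Het (adjusted p = 0.015). Of 20 endothelial genes, 5 were higher and 1 lower in KO than in Het, against 10 higher and none lower with total-count scaling. In KO-Drug against KO, 3 were lower and none higher, against 7 lower with total-count scaling. Their summed level overlapped between groups, at 472 to 604 CPM in KO-Drug, 534 to 649 CPM in KO and 454 to 694 CPM in Het.

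Other pericentral genes, such as the cytochrome P450s of the inner lobule, were called in both directions. Of 29 tested, 12 were lower and 4 higher in KO than in Het (median log2 -0.33), where total-count scaling gave 7 lower and 8 higher. In KO-Drug against KO, 13 were higher and 2 lower (median log2 0.63), against 9 higher and 5 lower with total-count scaling. In KO-Drug against Het, 8 were higher and 4 lower under both scalings (median log2 0.03 with TMM). Whether this list differs from the 10 genes was not tested. Cyp2e1, the ethanol-oxidising cytochrome P450, had 4349, 7166, 7257 and 8700 CPM in KO-Drug, 2737, 2574, 2852 and 3217 CPM in KO, and 6946, 8915, 9662 and 8148 CPM in Het. KO stood below all 8 other libraries, and Cyp2e1 was 2.41-fold higher in KO-Drug than in KO (adjusted p = 0.0025) and 2.96-fold lower in KO than in Het (adjusted p = 0.000151). Cyp1a2, another P450, was 1.83-fold higher in KO-Drug than in KO (adjusted p = 0.0373) and 1.88-fold lower in KO than in Het (adjusted p = 0.0163). Cyp7a1, the rate-limiting enzyme of bile acid synthesis, averaged 184 CPM in KO-Drug, 39.4 CPM in KO and 104 CPM in Het. It was 4.65-fold higher in KO-Drug than in KO (adjusted p = 0.00632) and 2.63-fold lower in KO than in Het (adjusted p = 0.0264). Both calls of Cyp1a2, and that of Cyp7a1 in KO against Het, were lost with total-count scaling (adjusted p = 0.0892, 0.191 and 0.117). They were also lost without KO 5 and KO 6 (log2 0.79, -0.84 and -1.23, adjusted p = 0.15, 0.0898 and 0.132). The largest differences of the list belonged to gene families whose near-identical members can share reads and are uncertain for that reason. Cyp2c29 averaged 3520 CPM in KO-Drug, 160 CPM in KO and 3223 CPM in Het, and Cyp2a5 averaged 2629 CPM in KO-Drug, 1695 CPM in KO and 155 CPM in Het. Slc13a3, a dicarboxylate importer, had the same order of group means as Rhbg, at 30.7 CPM in KO-Drug, 113 CPM in KO and 16.7 CPM in Het, and was called higher in KO than in Het and lower in KO-Drug than in KO (log2 2.76 and -1.88, adjusted p = 0.000209 and 0.0059).

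Periportal genes mark the opposite end of the lobule, where the urea cycle is strongest. Of 30 tested, 14 were lower and 2 higher in KO than in Het (median log2 -0.67), where total-count scaling gave 4 lower and 5 higher. In KO-Drug against KO, 4 were higher and 2 lower, against 1 higher and 4 lower with total-count scaling. Cps1, the entry enzyme of the urea cycle, averaged 4790 CPM in KO-Drug, 2503 CPM in KO and 4919 CPM in Het and was called in KO-Drug against KO (log2 0.94, adjusted p = 0.0379) and in KO against Het (log2 -0.97, adjusted p = 0.0166). Gls2, the glutaminase that releases ammonium from glutamine, had 250, 232, 213 and 144 CPM in KO-Drug, 164, 115, 252 and 248 CPM in KO, and 292, 387, 439 and 340 CPM in Het. The knockout libraries were below Het throughout, with a log2 difference of -0.90 in KO against Het (adjusted p = 0.0111) and -0.80 in KO-Drug against Het (adjusted p = 0.0358). Cyp2f2, a periportal P450, fell 4.32-fold in KO against Het (adjusted p = 0.000742). Alb, the main secreted product of hepatocytes in both zones, fell 2.24-fold in KO against Het (adjusted p = 0.00861). With total-count scaling the calls of Cps1 in both comparisons were lost (adjusted p = 0.069 in KO-Drug against KO and 0.149 in KO against Het), as were those of Gls2 (adjusted p = 0.166 in KO against Het and 0.0712 in KO-Drug against Het). Without KO 5 and KO 6 Cps1 was not called in KO-Drug against KO (log2 1.07, adjusted p = 0.0871).

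The 10 genes were left out when other genes were ranked by likeness. The other genes most like Glul over the 12 libraries, by Pearson's r of log2 CPM, were Hes6 (0.97), Car3 (0.96), Bcs1l (0.96), Cldn12 (0.96) and Rhobtb3 (0.96). After subtracting group means their r was 0.86, 0.82, 0.80, 0.81 and 0.78. They share libraries, depth and groups with Glul, and the ranking over all other tested genes fixed the high values, so these are descriptions. Car3, a carbonic anhydrase, averaged 854 CPM in KO-Drug, 253 CPM in KO and 4290 CPM in Het. Of the 10 genes Lgr5 was nearest to Glul (0.62, and 0.75 within groups) and Rhbg farthest (-0.67, and 0.24 within groups). For Axin2 the most similar genes outside the 10 were H2-Q9 (0.90), Itpripl1 (0.89), Lrrc8c (0.87), Mast4 (0.85) and Ankrd44 (0.84). Among the 10 genes, Tbx3 was nearest to Axin2 (0.23, and 0.76 within groups).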

How the data were processed

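RNA of whole liver from 12 mice (KO-Drug, KO and Het, 4 each) had been extracted with the RNeasy kit and sequenced from TruSeq Stranded Total RNA libraries, per the labels' protocols. FastQC 0.11.7, StringTie 2.1.3b and mm10 are named in the submitters' processing notes. The aligner, the annotation release and whether strand was used to count reads were not given in the sources used here. Per the file headers, the authors deposited a raw read count for each gene and library. The authors deposited FPKM (fragments scaled by gene length and library depth) in the same table. In it, 3 columns without a name were not used. Of the 24532 gene numbers, 24462 matched RefSeq.

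The filterByExpr rule (at least 10 counts, at least 15 in total) set aside 11153 genes. With edgeR 4.0.16 in R 4.3.3, a quasi-likelihood model with TMM scaling and 1 mean per group was fitted to the 12 libraries together. Tests were two-sided and adjusted by Benjamini-Hochberg over 13379 genes at 0.05. Alternatives were total-count scaling, DESeq2 1.42.0, limma 3.58.1 on log2(FPKM + 0.1), no filter, only the groups compared, a replicate block, limma voom with sample weights, and leaving out libraries. A comparison of 4 with 4 by exact permutation cannot give a p under 0.0286.

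FPKM and count of a member differed from 1 factor per library by at most 5.3%, except 13.8% for Slc1a2, which has 3 transcripts. Of the 10 genes, 6 overlap another annotated gene, and 3 of these overlapping genes had counts: Mir8114 (44, against 183570 for Glul), Fbxl21 (511, against 37638 for Lect2) and 1110028F11Rik (740, against 3071 for Rnf43). Named genes are the 10 genes, fixed examples, and the called genes with the smallest adjusted p of each list. The members, lists and examples were chosen with earlier results of these data known.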

Additional observations from a re-analysis of the deposited data

Results flagged for a closer look

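In KO-Drug 2, Glul stood at 1004 CPM, against 518 to 595 CPM in the other 3 KO-Drug libraries, a gap of 0.841 of the group's range and past Dixon's 95% limit for 4 samples. Lgr5 stood at 6.51 CPM in the same library, against 1.43 to 2.26 CPM in the other 3, a gap of 0.837 of the range. Of 30 combinations of gene and group checked, these 2 were singled out, where chance gives about 1 in 20. KO-Drug 2 was the highest of its group for Glul, Lgr5 and Lect2 and the lowest for none of the 10 genes.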

How the results depend on the processing

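Over 20 alternatives for each of 30 log2 differences, 537 of 600 kept direction and side of the threshold, 29 lost the call, 17 gained one and 17 changed sign. Glul and Rhbg in KO against Het and Rhbg and Tbx3 in KO-Drug against KO kept theirs under all 20. With total-count scaling the log2 difference in KO against Het was 0.11 for Oat, 0.07 for Slc1a2 and 0.11 for Znrf3, in KO-Drug against KO -0.10 for Slc1a2 and -0.16 for Znrf3, and in KO-Drug against Het 0.05 for Rnf43. With limma on FPKM it was 0.04 for Oat and 0.12 for Znrf3 in KO against Het, and -0.17 for Slc1a2, -0.02 for Rnf43 and -0.18 for Znrf3 in KO-Drug against KO. With voom, Axin2 stood at 0.06 in KO-Drug against KO. None of these sign changes involved a called value. Leaving out 1 library gave -0.30 to 0.06 for Axin2 in KO-Drug against KO, -0.06 to 0.24 for Axin2 and -0.38 to 0.09 for Rnf43 in KO-Drug against Het.

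In KO-Drug against KO, 2654 genes were called, against 4255 with total-count scaling, 4781 with limma on FPKM and 1632 to 3066 without 1 library (1633 without KO 4, 1632 without KO-Drug 3). The members called were 6 in KO against Het with only these groups in the fit, 1 in KO-Drug against Het with total-count scaling, and 0 to 3 in KO-Drug against Het without 1 library. They were 0 without Het 1, Het 2, KO-Drug 3 or KO-Drug 4. Over all tested genes the calls were 5388 in KO against Het with only these groups in the fit. In KO-Drug against Het they were 2932 with total-count scaling and 2247 to 2863 without 1 library. The causes were not tested.

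Equal replicate numbers were not taken to pair mice. Deviations of same-numbered libraries correlated at 0.02 to 0.07 in KO against Het (2 pairs), 0.09 to 0.11 in KO-Drug against KO (2 pairs) and -0.03 to 0.14 in KO-Drug against Het (4 pairs). Libraries that correlated best with their own number were 1 of 4 in KO against Het and 3 of 4 in KO-Drug against KO. In KO-Drug against Het they were 6 of 8. A pairing of mice is thus not excluded. With the replicate number as a block, 3693 genes were called in KO against Het, 1741 in KO-Drug against KO and 2516 in KO-Drug against Het, and 2 members (Tbx3 and Rhbg) in KO-Drug against KO, where the calls of Oat and Lect2 were lost (log2 0.52 and -0.80, adjusted p = 0.228 and 0.131). In KO against Het the block lost the call of Tbx3 (log2 -0.74, adjusted p = 0.0651) and gave one for Slc1a2 (log2 -1.16, adjusted p = 0.0302). Depth limits Lgr5 most, with 27 counts in 1 library.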
